A study of Homo sapiens with 12 samples.

Results

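The Siglec family was followed as 10 genes, CD33, CD22, SIGLEC1, SIGLEC5, SIGLEC6, SIGLEC7, SIGLEC8, SIGLEC9, SIGLEC10 and SIGLEC14, matched by symbol among the 58381 genes of the deposited tables. All 10 were found. Their mRNA was measured by stranded, polyA-selected RNA sequencing in sublines of HMC-1, a human mast cell leukaemia line, with 3 libraries per subline and 12 in all. HMC-1.1 cells carry the V560G variant of KIT, the receptor for stem cell factor, and HMC-1.2 cells carry V560G together with D816V. In HMC-1.3 cells the V560G variant of HMC-1.2 was reverted with CRISPR/Cas9, which left D816V by itself, and 2 subclones were sequenced, called clone 1 and clone 2 here. The comparison of HMC-1.3 with HMC-1.2 asks what the V560G variant adds to cells that have D816V. Each HMC-1.3 group is a single clone that went through electroporation and drug selection, HMC-1.1 is a separate subline, and the libraries of a group came from wells plated in parallel. The p-values therefore measure the spread between such wells, and a difference due to the KIT genotype cannot be told apart from any other difference between these sublines.

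Siglecs are cell surface lectins that bind sialic acid, the sugar that caps many glycans, through an immunoglobulin-like domain. Most CD33-related Siglecs carry tyrosine motifs in the cytoplasmic tail that recruit the phosphatases SHP-1 and SHP-2 and dampen activating receptors, while SIGLEC14 has no such motif and pairs with the activating adaptor DAP12. Mast cells are known to display several of them, and Siglec-8, which is also found on eosinophils, and Siglec-6 have been studied as inhibitory targets on these cells.

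In HMC-1 cells 5 of the 10 members were transcribed in every library, at 5.95 or more fragments per kilobase per 1e6 fragments (FPKM, a level that can be compared between genes). SIGLEC6 was the most abundant, followed by SIGLEC14, CD33, SIGLEC8 and SIGLEC5 in an order that changed between sublines. SIGLEC8 was the member that varied most, 8.03-fold between the group means, and was lowest in HMC-1.2. The other 5 members, CD22, SIGLEC1, SIGLEC7, SIGLEC9 and SIGLEC10, did not exceed 0.29 FPKM in any library. SIGLEC12, a neighbouring Siglec gene that is not among the 10, differed from HMC-1.2 in the opposite direction to SIGLEC8. It was at 37.6 FPKM in HMC-1.2 but below 1 FPKM in the other sublines.

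SIGLEC5 and SIGLEC14 are shown first as sequence, since they are near copies over the start of their coding sequence. A counting program cannot fully separate reads from there. Both lie on the minus strand of chromosome 19, and their first coding exons agree in 37 of 37 bases and the second in 384 of 384. The third coding exons, at chr19:51629358-51629636 for SIGLEC5 and chr19:51645782-51646060 for SIGLEC14 (hg38, minus strand, canonical transcripts of Gencode 44), agree in 278 of 279 bases, and the capital letter marks the difference.
SIGLEC5: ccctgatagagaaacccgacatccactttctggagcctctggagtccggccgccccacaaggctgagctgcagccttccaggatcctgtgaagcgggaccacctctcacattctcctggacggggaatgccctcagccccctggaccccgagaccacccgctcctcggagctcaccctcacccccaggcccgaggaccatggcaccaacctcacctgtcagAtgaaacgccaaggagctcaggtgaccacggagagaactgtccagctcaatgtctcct
SIGLEC14: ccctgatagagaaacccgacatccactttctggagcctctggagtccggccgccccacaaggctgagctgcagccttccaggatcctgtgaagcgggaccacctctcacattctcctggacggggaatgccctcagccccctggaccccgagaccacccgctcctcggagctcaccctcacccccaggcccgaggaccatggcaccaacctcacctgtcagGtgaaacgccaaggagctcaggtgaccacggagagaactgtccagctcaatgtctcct

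From the fourth coding exon on the genes diverge, and over the whole coding sequence they agree in 67.2% of alignment columns. The fifth coding exons, at chr19:51627834-51628091 and chr19:51643779-51644036, agree in 168 of 262 alignment columns, and capitals again mark where the aligned genes differ, so that reads from here can be assigned to a gene.
SIGLEC5: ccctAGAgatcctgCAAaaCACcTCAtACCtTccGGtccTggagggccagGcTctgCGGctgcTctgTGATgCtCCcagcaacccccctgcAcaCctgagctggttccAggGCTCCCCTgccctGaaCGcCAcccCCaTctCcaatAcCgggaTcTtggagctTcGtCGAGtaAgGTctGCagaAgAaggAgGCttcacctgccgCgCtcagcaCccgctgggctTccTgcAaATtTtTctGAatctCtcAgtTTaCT
SIGLEC14: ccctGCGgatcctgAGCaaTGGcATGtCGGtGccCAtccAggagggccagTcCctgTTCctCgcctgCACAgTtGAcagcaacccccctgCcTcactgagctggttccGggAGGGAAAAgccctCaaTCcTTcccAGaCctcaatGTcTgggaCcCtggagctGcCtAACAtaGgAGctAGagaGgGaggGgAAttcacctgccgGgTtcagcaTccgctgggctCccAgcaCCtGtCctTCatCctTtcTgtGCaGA

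Of all stretches of 50 bases in the Gencode 44 transcripts of SIGLEC5, 21.4% also occurred in transcripts of SIGLEC14, and 13.6% of those of SIGLEC14 occurred in SIGLEC5. For SIGLEC10, 8.38% of such stretches occurred in other genes, chiefly its paralogs SIGLEC11 and SIGLEC16. The share was between 0 and 2.66% for CD33, CD22, SIGLEC1, SIGLEC6, SIGLEC7, SIGLEC8 and SIGLEC9, and it was 0.491% for SIGLEC8 and 0.3% for SIGLEC12. In the count table the values of SIGLEC8 and SIGLEC12 were whole numbers in all 12 libraries, whereas those of SIGLEC5 and SIGLEC14 had fractions in all 12. RSEM, the counting program, divides reads that match several genes between them. SIGLEC5 has a further limit. Its row carries the identifier ENSG00000105501, which Gencode 44 gives to a noncoding RNA at chr19:51630101-51645545 that overlaps SIGLEC14, while the identifier that Gencode 44 gives to the coding gene, ENSG00000268500, is listed under another name and at 0 in all 12 libraries. The ratio of counts to FPKM gives the SIGLEC5 row a mean effective length of 2126 bases, against 1790 bases for SIGLEC14. Values of SIGLEC5 are those of that row, and the division between SIGLEC5 and SIGLEC14 is uncertain.

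SIGLEC8, SIGLEC12, SIGLEC6, SIGLEC5 and SIGLEC14 lie in this order along chromosome 19, all on the minus strand, within the cluster of CD33-related Siglec genes. The 250 bases upstream of the RefSeq starts of SIGLEC8 (chr19:51458455-51458704) and SIGLEC12 (chr19:51501801-51502050, both GRCh38.p14, minus strand) are given next. These neighbours differed from HMC-1.2 in opposite directions in every other subline. Their windows agree in 202 of 256 alignment columns, or 78.9%, with 42 substitutions and 12 gaps, and capitals mark the bases that differ.
SIGLEC8: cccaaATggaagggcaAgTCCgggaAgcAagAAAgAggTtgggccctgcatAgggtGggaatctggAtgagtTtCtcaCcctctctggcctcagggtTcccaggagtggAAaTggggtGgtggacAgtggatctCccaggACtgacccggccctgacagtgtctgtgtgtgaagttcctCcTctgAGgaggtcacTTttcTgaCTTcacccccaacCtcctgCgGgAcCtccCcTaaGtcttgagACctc
SIGLEC12: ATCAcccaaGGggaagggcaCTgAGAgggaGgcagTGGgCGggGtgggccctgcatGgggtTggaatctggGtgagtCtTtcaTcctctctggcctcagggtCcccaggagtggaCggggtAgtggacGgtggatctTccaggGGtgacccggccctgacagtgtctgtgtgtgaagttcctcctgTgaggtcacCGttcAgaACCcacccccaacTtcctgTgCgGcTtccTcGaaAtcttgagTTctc

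Among the 10 upstream windows at hand, of 9 members and SIGLEC12, the closest pair was SIGLEC5 and SIGLEC14 with 85.1% identity, followed by SIGLEC8 and SIGLEC12. SIGLEC1 had no window. The windows were searched on both strands for the letters bound by GATA factors (AGATAA with its variant AGATAG, and TGATAA with its variant TGATAG), which were in none of the 10 windows and in 22.9% of 27305 windows of the same length over all genes. The letters TTCNNNGAA, bound by STAT factors, occurred in SIGLEC6 and SIGLEC12 and in 6.78% of all windows. The letters CATGTG and their variant CACGTG, bound by MITF and related factors, occurred in CD33, SIGLEC5 and SIGLEC14 and in 15.5% of all windows. Neither TGTGGT, the letters of RUNX factors, nor GAGGAAGT, those of PU.1, was found, against 10.9% and 2.13% of all windows. No match overlapped another. A match is a description of the letters only. The windows of 3 of the expressed members are given below with these matches in capitals, for CD33 at chr19:51224830-51225079 on the plus strand and for SIGLEC6 at chr19:51531671-51531920 and SIGLEC14 at chr19:51646826-51647075 on the minus strand.
CD33: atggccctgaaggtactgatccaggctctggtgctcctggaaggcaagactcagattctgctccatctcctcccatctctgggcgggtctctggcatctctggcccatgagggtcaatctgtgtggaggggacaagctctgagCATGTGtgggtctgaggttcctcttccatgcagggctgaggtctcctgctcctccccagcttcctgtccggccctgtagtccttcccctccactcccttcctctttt
SIGLEC6: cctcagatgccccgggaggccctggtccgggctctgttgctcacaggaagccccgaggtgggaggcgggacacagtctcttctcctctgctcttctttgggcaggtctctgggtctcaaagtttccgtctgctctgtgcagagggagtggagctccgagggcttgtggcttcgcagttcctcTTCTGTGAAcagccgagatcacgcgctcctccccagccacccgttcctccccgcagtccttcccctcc
SIGLEC14: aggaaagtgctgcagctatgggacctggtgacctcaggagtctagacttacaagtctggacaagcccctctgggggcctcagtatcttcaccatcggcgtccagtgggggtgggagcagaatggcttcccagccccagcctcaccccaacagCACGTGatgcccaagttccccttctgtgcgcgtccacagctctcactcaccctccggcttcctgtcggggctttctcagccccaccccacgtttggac

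The libraries held between 29225900 and 43181402 counts assigned to genes. Mean KIT levels lay between 356 ± 8.55 FPKM in HMC-1.2 and 450 ± 21.4 in HMC-1.3 clone 1 (SD, n = 3), and a gene level does not show which KIT variant is present. Of the 12 mast cell markers examined, KIT, HDC, GATA2, MITF, TPSAB1 and TPSB2 were at a mean of 10 FPKM or more over the 12 libraries, while the IgE receptor chains MS4A2 and FCER1A stayed at group means of 1.09 FPKM or less and CMA1 and MRGPRX2 at 0.0633 or less, so that several defining mast cell transcripts were near 0 in these cells. Of these markers 10 were tested, and 4 were called lower and 1 higher than HMC-1.2 in each clone. The clones shared 3 of the lower ones. Over all tested genes, 8.18% were called lower and 11.8% higher in clone 1, and 8.51% and 7.98% in clone 2. TPSAB1, which encodes a tryptase, had means of 592 FPKM in HMC-1.2 and 29.4 to 44.2 in the other sublines, and TPSB2 had 96.6 against 35.0 to 40.7. Counts had fractions in 11 libraries for TPSAB1 and in 12 for TPSB2, so reads were divided there too and their separate levels are uncertain. CPA3, mast cell carboxypeptidase, had 3.31 against 7.52 to 10.9. MS4A2 was also lower in both clones. Of the 9 eosinophil and basophil markers 7 were tested, and 7 were called lower in clone 1 and 6 in clone 2, beside the same 8.18% and 8.51%. CLC, PRG2, PRG3, EPX, RNASE2 and IL5RA were called lower in both clones than in HMC-1.2. Of these, PRG3, EPX and RNASE2 were low throughout, at group means of 1.35 FPKM or less. The summed level of the 9 markers was 412 to 432 FPKM in the HMC-1.2 libraries, 110 to 121 in HMC-1.1, 95.3 to 102 in clone 1 and 62.2 to 67 in clone 2, chiefly from CLC and PRG2. SIGLEC8 is also an eosinophil gene but moved against these markers, and the part of either marker list in its result was not tested.

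**Figure D1:**
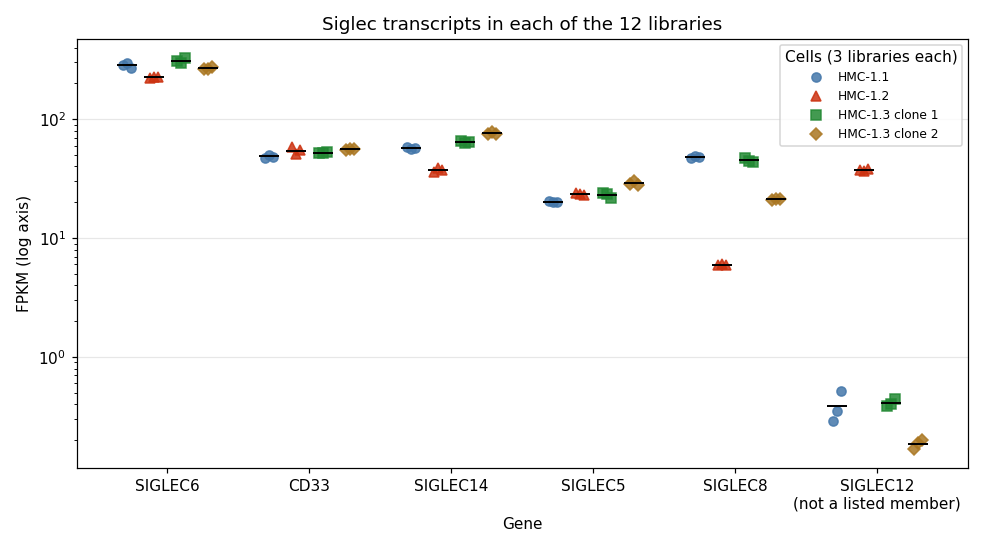
FPKM on a log axis for the 5 expressed members and SIGLEC12, with a point for each of the 3 libraries of each subline and a line at the group mean. SIGLEC8 falls from 48.0 FPKM in HMC-1.1 to 5.98 in HMC-1.2, SIGLEC12 is high in HMC-1.2 only among these 4 sublines, and CD33 stays between 47.5 and 58.2.

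SIGLEC8, which encodes an inhibitory receptor of mast cells and eosinophils, was measured at 5.95, 6.03 and 5.96 FPKM in the HMC-1.2 libraries and at 47.3, 49.1 and 47.6 FPKM in those of HMC-1.1. HMC-1.3 clone 1 gave 47.3, 44.1 and 43.8 FPKM, and HMC-1.3 clone 2 gave 20.9, 21.4 and 21.3. No HMC-1.2 or clone 2 library overlapped a library of another subline, and only HMC-1.1 and clone 1 overlapped, when compared in counts per 1e6 counts of the library (CPM). The means of HMC-1.2, HMC-1.1, clone 1 and clone 2 were 5.98 ± 0.0436, 48.0 ± 0.961, 45.1 ± 1.96 and 21.2 ± 0.273 FPKM (SD, n = 3 each). For a call, the edgeR quasi-likelihood test had to give a p under 0.05 after Benjamini-Hochberg adjustment over all 15944 genes tested, together with a fold over 1.5. SIGLEC8 was 6.74-fold higher in clone 1 than in HMC-1.2 (log2 difference 2.75 ± 0.04, SE, edgeR adjusted p = 2.38e-18) and 3.30-fold higher in clone 2 (1.72 ± 0.04, adjusted p = 1.61e-15). In HMC-1.1 it was 7.16-fold higher (2.84 ± 0.04, edgeR adjusted p = 1.46e-18). All 3 differences were taken from the same HMC-1.2 libraries. In bulk RNA, fewer cells that transcribe a gene and less of its RNA per cell cannot be told apart.

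SIGLEC8 also differed between the HMC-1.3 clones. Clone 1 was 2.04-fold above clone 2 (log2 difference 1.03 ± 0.03, SE, edgeR adjusted p = 4.33e-13), and clone 2 was 2.17-fold below HMC-1.1 (edgeR adjusted p = 2.29e-13). Between clone 1 and HMC-1.1 the log2 difference was -0.09 with an interval of -0.16 to -0.02 and an edgeR adjusted p of 0.0854, so that a difference over 1.5-fold lay outside the interval. Read against all tested genes, the SIGLEC8 difference from HMC-1.2 ranked 344 by size for clone 1, 759 for clone 2 and 314 for HMC-1.1, so that between 1.97% and 4.76% of genes differed as much.

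SIGLEC14, the DAP12-coupled receptor, had 35.8, 39.2 and 37.5 FPKM in the HMC-1.2 libraries and 58.6, 56.3 and 56.8 FPKM in those of HMC-1.1. Clone 1 gave 64.9, 62.7 and 64.5 FPKM, and clone 2 gave 75.6, 78.5 and 75.6. The 4 sublines did not overlap, with HMC-1.2 lowest and clone 2 highest. It was 1.65-fold higher than HMC-1.2 in clone 1 (log2 0.72 ± 0.04, edgeR adjusted p = 4.84e-11) and 2.01-fold higher in clone 2 (1.01 ± 0.04, adjusted p = 5.10e-13). In HMC-1.1 it was 1.48-fold higher (0.57 ± 0.04, edgeR adjusted p = 1.41e-09), just under the fold that a call needed, and it was called without HMC-1.1 replicate 2 (0.59) or without HMC-1.2 replicate 2 (0.60). Its order differed from that of SIGLEC8: clone 1 was below clone 2 by 0.29 on the log2 scale (edgeR adjusted p = 4.86e-06), where SIGLEC8 was above.

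The row named SIGLEC5, after the inhibitory partner of SIGLEC14, was at 24.0, 23.6 and 23.0 FPKM in the HMC-1.2 libraries. It was at 20.5, 20.1 and 20.1 FPKM in those of HMC-1.1. Clone 1 gave 23.8, 23.3 and 21.6 FPKM, and clone 2 gave 28.4, 30.1 and 28.1. HMC-1.2 and clone 1 overlapped, HMC-1.1 was lowest and clone 2 highest. None of the 6 comparisons between sublines passed the call for SIGLEC5. Set against HMC-1.2, the log2 difference was -0.10 for clone 1 (edgeR adjusted p = 0.0737), 0.27 for clone 2 (adjusted p = 8.06e-05) and -0.26 for HMC-1.1 (adjusted p = 0.000106).

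Because the pair shares sequence, their counts were also added before the test. SIGLEC14 took 57.2 ± 1.45% of the summed counts in HMC-1.2 (SD, n = 3), against 70.4 ± 0.335% for HMC-1.1, 70.2 ± 1.15% for clone 1 and 69.1 ± 0.355% for clone 2. The HMC-1.2 libraries, at 55.6, 58.3 and 57.8%, lay below every library of the other sublines, of which the lowest was at 68.7%. The sum was 0.42 higher on the log2 scale in clone 1 than in HMC-1.2 (edgeR adjusted p = 9.27e-09, 1.34-fold), 0.73 higher in clone 2 (adjusted p = 6.55e-12, 1.66-fold) and 0.27 higher for HMC-1.1 (adjusted p = 3.45e-06). Of these 3 sums, that of clone 2 was called. How far the SIGLEC14 call in clone 1 depends on the division of reads was not tested.

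**Figure D2:**
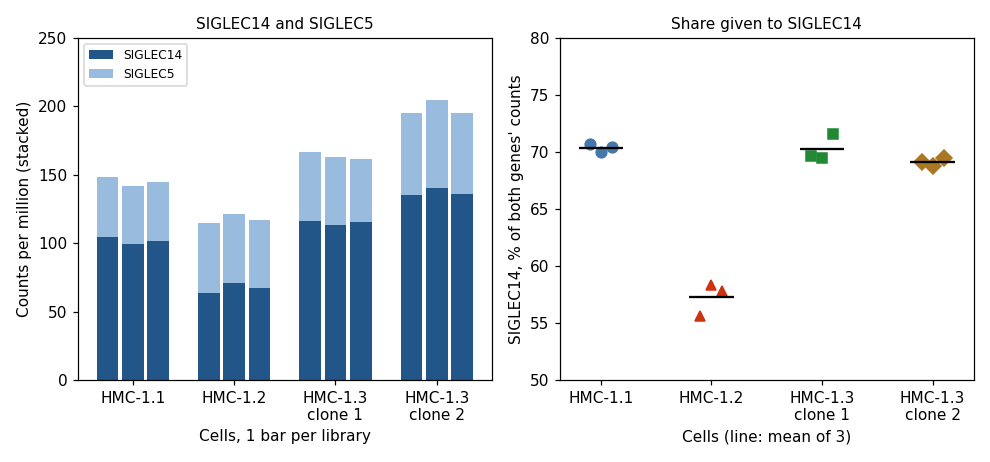
Left, CPM of SIGLEC14 and SIGLEC5 stacked for each of the 12 libraries. Right, the percentage of the counts of both genes that went to SIGLEC14, with a point per library and a line at the mean of 3; HMC-1.2 lies at 57.2% and the other sublines between 69.1 and 70.4%.

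SIGLEC6, an inhibitory receptor found on mast cells and placental trophoblast, was at 223, 224 and 227 FPKM in the HMC-1.2 libraries and at 286, 295 and 269 FPKM in those of HMC-1.1. Clone 1 gave 310, 295 and 324 FPKM, and clone 2 gave 266, 263 and 275. It gave 58.5 to 65.2% of the summed FPKM of the 10 members over the 12 libraries. In CPM the sublines did not overlap and ran from clone 1 through HMC-1.1 and clone 2 to HMC-1.2. The differences were small: 0.40 on the log2 scale between clone 1 and HMC-1.2 (edgeR adjusted p = 2.22e-08), 0.19 for clone 2 (adjusted p = 0.000196) and 0.29 for HMC-1.1 (adjusted p = 1.83e-06), and none reached 1.5-fold.

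CD33, the founding inhibitory member of the myeloid Siglecs, was at 58.2, 50.6 and 54.6 FPKM in the HMC-1.2 libraries and at 47.5, 49.7 and 48.5 FPKM in those of HMC-1.1. Clone 1 gave 51.8, 52.4 and 53.0 FPKM, and clone 2 gave 55.5, 56.3 and 56.3. In CPM each subline overlapped its neighbour in the order. CD33 differed from HMC-1.2 on the log2 scale by -0.10 in clone 1 (95% interval -0.19 to -0.00267, edgeR adjusted p = 0.0714), -0.01 in clone 2 (-0.11 to 0.08, adjusted p = 0.855) and -0.12 for HMC-1.1 (-0.21 to -0.02, adjusted p = 0.0338). These intervals lie within 1.5-fold of no difference.

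Together, 2 members (SIGLEC8 and SIGLEC14) were called higher in clone 1 than in HMC-1.2 and none lower, beside 20.0% of all tested genes called in this comparison, 11.8% higher and 8.18% lower. The same 2 members were called higher in clone 2, where 16.5% of genes were called, 7.98% higher and 8.51% lower. SIGLEC8 was called higher in HMC-1.1 than in HMC-1.2, beside 17.6% of genes, 10.1% higher and 7.52% lower. It was also the member called between the clones, where 12.6% of genes were called, and lower in clone 2 than in HMC-1.1, where 8.19% were. Between clone 1 and HMC-1.1 no member was called, beside 1.01% of genes. There, 3 of the 5 tested members (SIGLEC5, SIGLEC6 and SIGLEC14) had an edgeR adjusted p under 0.05 with no fold threshold. The 1.01% is a share with the fold threshold, and the share of all genes without it was not counted. All these counts of members cover 5 of the 10, since the other 5 were too low to be tested.

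By FPKM, SIGLEC6 was first and SIGLEC14, CD33, SIGLEC8 and SIGLEC5 followed in that order in HMC-1.1 and in clone 1, with overlap between CD33 and SIGLEC8 in HMC-1.1. In clone 2 SIGLEC5 stood above SIGLEC8, at 28.9 ± 1.06 against 21.2 ± 0.273 FPKM. In HMC-1.2 CD33 stood second, at 54.4 ± 3.78 FPKM, ahead of SIGLEC14 at 37.5 ± 1.69, and SIGLEC8 was last. The summed FPKM of the 10 members was 344 to 348 in the HMC-1.2 libraries, 442 to 471 in those of HMC-1.1, 477 to 507 for clone 1 and 447 to 456 for clone 2.

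**Figure D3:**
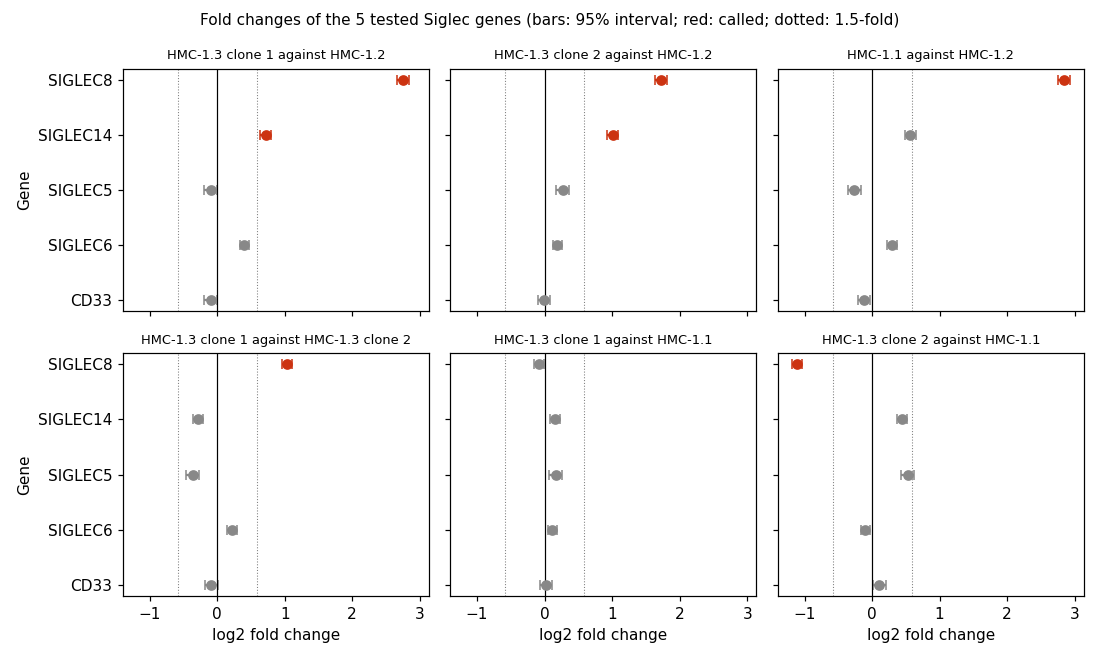
Log2 fold change of the 5 tested members in the 6 comparisons, with 95% intervals; red points passed the call and dotted lines mark 1.5-fold. SIGLEC8 stands at 2.75, 1.72 and 2.84 against HMC-1.2, while SIGLEC5, SIGLEC6 and CD33 stay inside the dotted lines in all 6.

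The members that mark other leukocytes were near the limit of detection. CD22, the B cell Siglec, had 19 counts over the 12 libraries and at most 5 in any. SIGLEC1, the sialoadhesin of macrophages, had 8 counts, and SIGLEC10, a receptor for CD24 on B cells and other leukocytes, had 36 counts and at most 6 in any library. SIGLEC7, known from natural killer cells, had 2 counts, both in HMC-1.2 replicate 2, and SIGLEC9, known from neutrophils and monocytes, had 1 count, in clone 1 replicate 3. A floor of 3 counts corresponds to 0.0695 to 0.103 CPM in these libraries, for counting error only, and differences between sublines in these 5 genes were not detectable at this depth. Except for natural killer cells, the marker lists of the cells these genes are known from were low as well. Macrophage and monocyte markers summed to 5.89 to 20.6 FPKM, with CD14 at group means of 0.0567 or less and CD68 lower in both clones than in HMC-1.2. B cell markers summed to 2.86 to 6.18 and neutrophil markers to 0.08 to 2.35, with MPO, FCGR3B, S100A8 and S100A9 at 0 in all 12 libraries. Natural killer cell markers summed to 266 to 271 FPKM in HMC-1.2 and 37.6 to 47.5 elsewhere, nearly all from PRF1, which like NCAM1 was lower in both clones, with KLRF1 and NCR1 at 0 in all 12.

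Of 7 further Siglec genes examined (MAG, SIGLEC11, SIGLEC12, SIGLEC15, SIGLEC16, SIGLECL1 and the pseudogene SIGLEC17P), 3 were high enough to test. All 3 were called lower than HMC-1.2 in clone 2 and in HMC-1.1, beside 8.51% and 7.52% of all tested genes. SIGLEC12 and SIGLEC15 were also called lower in clone 1, beside 8.18% of all tested genes. SIGLEC12 had 37.7, 36.9 and 38.3 FPKM in HMC-1.2 and 0.17 to 0.52 FPKM in the 9 other libraries. It was 104-fold lower in clone 1 (log2 difference -6.70 ± 0.10, edgeR adjusted p = 2.05e-18), 218-fold lower in clone 2 (-7.77 ± 0.11, adjusted p = 1.07e-18) and 107-fold lower for HMC-1.1 (-6.74 ± 0.10, adjusted p = 1.55e-18). These folds depend on how values near 0 are handled: in limma on log2(FPKM + 1), still called, the log2 differences were -4.78, -5.02 and -4.80. Where HMC-1.2 was not compared, SIGLEC12 did not oppose SIGLEC8. Clone 1 exceeded clone 2 by log2 values of 1.07 for SIGLEC12 and 1.03 for SIGLEC8. Clone 2 differed from HMC-1.1 by -1.03 and -1.12. SIGLEC12 was near 0 in all these libraries. SIGLEC15, a Siglec of osteoclasts and macrophages, was low throughout, at 1.36 FPKM in HMC-1.2 and 0.377 to 0.673 elsewhere. Its log2 difference in clone 1, -0.86, was called, but not in limma on log2(FPKM + 1), where it was -0.49, nor in a test against 1.5-fold (edgeR adjusted p = 0.184). SIGLEC17P had means of 11.6 FPKM for HMC-1.2, 8.33 for clone 1, 4.86 for HMC-1.1 and 3.62 for clone 2, and its log2 difference from HMC-1.2 in clone 1, -0.54 (edgeR adjusted p = 1.37e-05), was under the 1.5-fold limit, which it passed without clone 1 replicate 1 (-0.60).

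The cluster between SIGLEC9 and SIGLEC14 spans chr19:51124906-51646825 (hg38) and holds 52 genes of the table, of which 16 could be tested. In clone 1 against HMC-1.2, 3 of the 16 were called higher (SIGLEC8, SIGLEC14 and IGLON5) and SIGLEC12 was called lower, beside 20.0% of all tested genes called. Clone 2, where 16.5% of all genes were called, had SIGLEC8, SIGLEC14 and the pseudogene SIGLEC29P higher and SIGLEC12 and SIGLEC17P lower. IGLON5 and SIGLEC29P were low throughout, at 0.12 to 0.51 FPKM and 0.83 to 1.72 FPKM over the libraries. SIGLEC8 and SIGLEC12 are next to each other among the tested genes, and the tested genes on either side of them, CTD-2616J11.2 and SIGLEC6, were not called. CTD-2616J11.2 had only 2 to 17 counts per library, so its lack of a call says little. SIGLEC6 was higher than HMC-1.2 by 0.40, 0.19 and 0.29 on the log2 scale in clone 1, clone 2 and HMC-1.1, under the fold limit. In HMC-1.1, where 17.6% of all genes were called, SIGLEC8 was called higher and SIGLEC12 and SIGLEC17P lower. The median log2 difference of the 16 was 0.19 for clone 1, 0.16 for clone 2 and 0.14 for HMC-1.1, beside 0.0136, -0.000114 and 0.00851 over all tested genes.

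**Figure D4:**
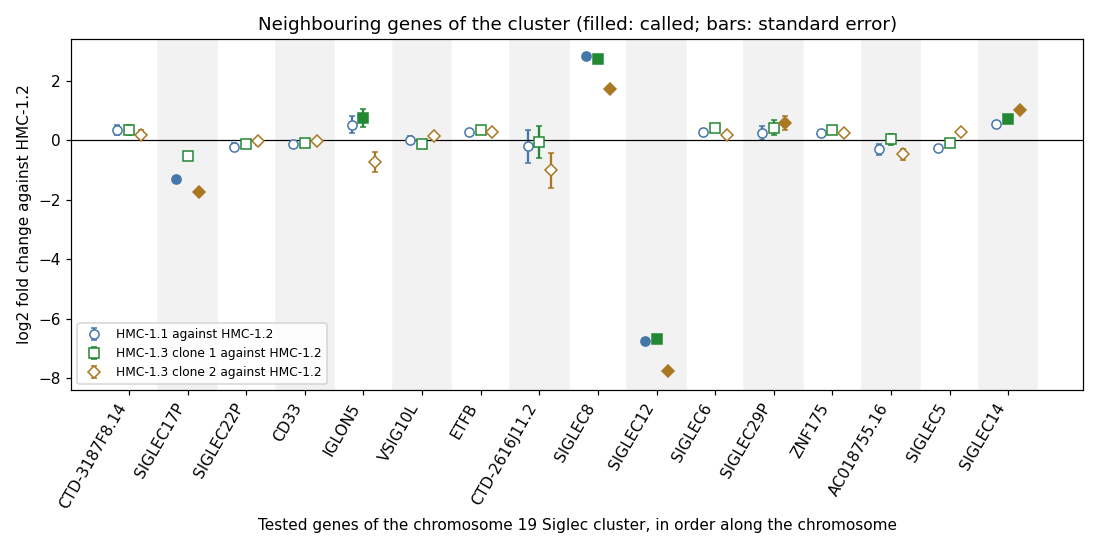
Log2 fold change, with HMC-1.2 as the reference, for the 16 tested genes of the cluster, in order along chromosome 19 and not to scale, for HMC-1.1 and both HMC-1.3 clones; bars are standard errors and filled points passed the call. SIGLEC8 rises by 1.72 to 2.84 beside SIGLEC12, which is lower by more than 6 in all 3 comparisons.

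Signals of these receptors run through adaptors, kinases and phosphatases. Of 14 such genes, 13 were tested, with a median log2 difference of -0.19 for clone 1, -0.09 for clone 2 and -0.20 for HMC-1.1 relative to HMC-1.2. In clone 1, 1 was called higher and 4 lower, beside 11.8% and 8.18% of all tested genes, and in clone 2, 1 higher and 3 lower, beside 7.98% and 8.51%. TYROBP, which encodes DAP12, the adaptor of SIGLEC14, had means of 118 FPKM for HMC-1.2, 15.9 for clone 2, 32.1 for clone 1 and 35.2 for HMC-1.1. Relative to HMC-1.2, TYROBP was lower by log2 values of -1.93 for clone 1, -3.00 for clone 2 and -1.83 for HMC-1.1 (highest edgeR adjusted p = 5.26e-13), the opposite direction to SIGLEC14. HCST, the related adaptor DAP10, was also lower (-1.52 and -2.71 in the clones), as was INPP5D, the inositol phosphatase SHIP-1 (-2.58 and -2.12). SYK, the kinase that DAP12 recruits, was higher, at 62.1 FPKM in clone 1 and 53.4 in clone 2 against 32.4 in HMC-1.2 (log2 0.90 and 0.71). PTPN6 and PTPN11, which encode SHP-1 and SHP-2, had log2 differences of -0.33 and -0.04 for clone 1 and of -0.40 and 0.12 for clone 2, none of them a call. Also without a call in either clone were LYN, FYN, CBL, GRB2 and VAV1.

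The ligands of Siglecs depend on sialic acid. Of 5 genes for its synthesis and transport, all tested, GNE, the rate-limiting enzyme, was called lower in clone 1 (log2 -0.68, edgeR adjusted p = 5.92e-11) but not in clone 2 (-0.14). The others (NANS, NANP, CMAS and SLC35A1) were not called against HMC-1.2. Beside these stand 8.18% of all tested genes called lower in clone 1 and 16.5% called either way in clone 2. Of 20 sialyltransferase genes, 13 were tested. In clone 1, 1 was called higher and 4 lower (11.8% and 8.18% of all tested genes), and in clone 2, 2 higher and 5 lower (7.98% and 8.51% of all), with median log2 differences of -0.31 in both. ST6GAL1, which makes the alpha-2,6 linkage that CD22 prefers, had means of 85.5 FPKM in HMC-1.2, 37.1 for clone 1 and 42.9 for clone 2 (log2 -1.25 and -1.05). ST3GAL2 (-0.92 and -0.80) and ST3GAL6 (-0.86 and -1.65) were also lower in both clones. Of the others at a mean of 10 FPKM or more, ST3GAL1 was called lower in clone 2 (-0.72) but not in clone 1 (-0.35), and ST3GAL4, ST6GALNAC4, ST6GALNAC6 and ST8SIA6 were called in neither. Of 10 sialidase, esterase and sulfotransferase genes, 5 were tested (NEU1, NEU3, NEU4, SIAE and CHST2). None was called against HMC-1.2 in either clone, beside 20.0% of all tested genes called in clone 1 and 16.5% in clone 2. Their median log2 differences were 0.28 and 0.22, under the 1.5-fold limit.

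Among 9 glycoproteins reported to carry Siglec ligands, 8 were tested, and 6 were called lower in clone 1 and 4 in clone 2, with 1 higher in clone 2, beside 8.18% of all tested genes called lower in clone 1 and 8.51% lower and 7.98% higher in clone 2. The median log2 difference was -1.18 for clone 1, -0.49 for clone 2 and -0.98 for HMC-1.1. SPN, or CD43 (-1.18 and -0.63), LGALS3BP (-1.59 and -1.33), MUC1 (-1.17 and -0.74) and CD44 (-0.76 and -0.61) were called lower in both clones. CD52, a small glycoprotein that binds Siglec-10 once shed, was 0.67 higher in clone 2 and 0.17 higher in clone 1, of which the first was called. SELPLG, the selectin ligand PSGL-1, differed by -0.40 and -0.09 without a call.

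**Figure D5:**
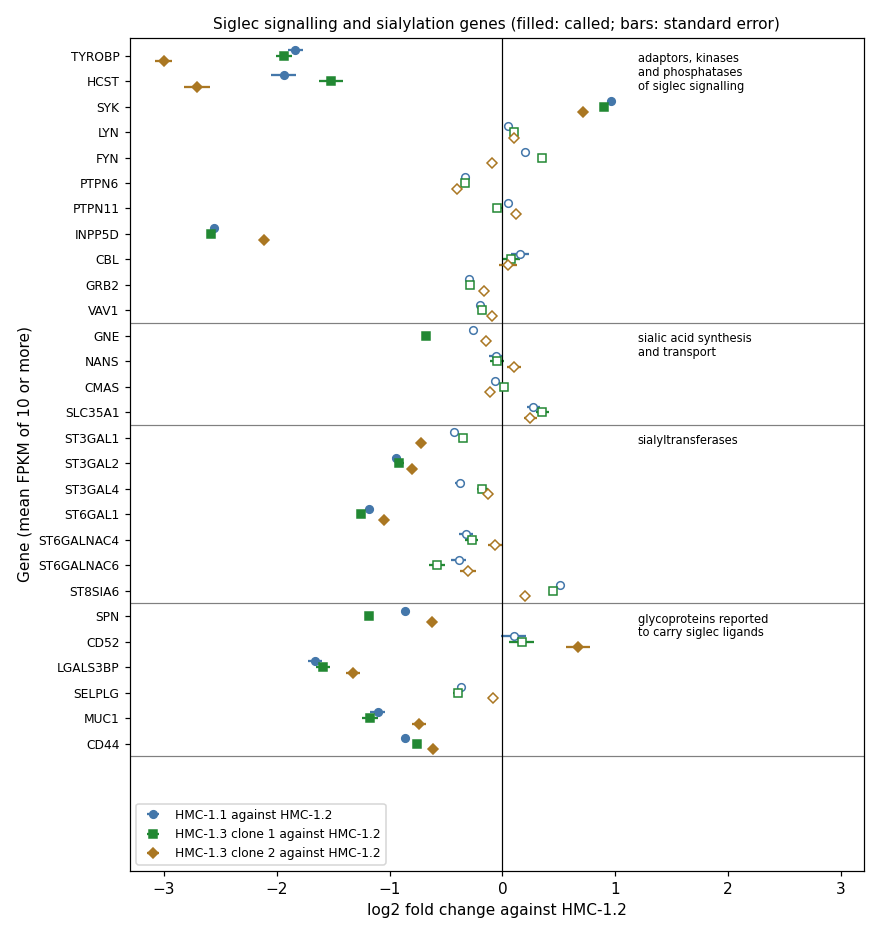
Log2 fold change, with HMC-1.2 as the reference, for signalling, sialic acid, sialyltransferase and glycoprotein genes with a mean of 10 FPKM or more, for HMC-1.1 and both HMC-1.3 clones; bars are standard errors and filled points passed the call. TYROBP, HCST and INPP5D lie between -3.00 and -1.52, and SYK between 0.71 and 0.96.

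Genes with a pattern like that of SIGLEC8 were ranked by Pearson's r of log2 CPM over the 12 libraries, among the 13115 genes whose mean reached 1 CPM. The points share 4 groups, so that r mainly describes the order of the group means. Most alike were CD164, a sialomucin of haematopoietic cells (r = 0.9966), RCN1 (0.9965), GTF3C3 (0.9962), LINC00624 (0.9958) and CCDC141 (0.9957). Most opposed were VIM, which encodes the filament protein vimentin (r = -0.9989), CRNKL1 (-0.9985), FST (-0.9978), ECM1 (-0.9972) and GJB2 (-0.9968). Within the family SIGLEC6 had the highest r with SIGLEC8, 0.924 over the 12 libraries, and r was 0.669 for SIGLEC14, -0.421 for SIGLEC5 and -0.658 for CD33.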

How the data were processed

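Per the labels, the authors ran cutadapt 2.10 for trimming, STAR 2.5.3 for alignment (hg38) and RSEM 1.3.0 for quantification. They deposited expected counts and FPKM per gene and library, and both tables were used. RSEM divides ambiguous reads, so expected counts of paralogs are estimates, and they were rounded here before tests. Of the identifiers, 58.3% had the same version in Gencode 44, from which positions were taken.

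Genes passing filterByExpr (15944) were fitted in edgeR 4.0.16 (R 4.3.3) with TMM factors (0.974 to 1.024) and 1 term per subline over all 12 libraries, and p-values were adjusted by Benjamini-Hochberg within each of 6 comparisons. Calls needed an adjusted p under 0.05 and a fold over 1.5. Alternatives were DESeq2 1.42.0, limma 3.58.1 on log2(FPKM + 1) and log2(FPKM + 0.1), other filters, scaling and designs (a replicate block, and a covariate for 3 libraries marked as resent in the labels), and each library left out. The steps were tested on simulated data. Sequences came from hg38, Gencode 44 and RefSeq. Shared stretches were exact matches of 50 bases between spliced transcripts. Alignments were global.

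The members and gene lists were chosen with earlier results of these data known. All members were named. From other lists, genes called the same way in both clones or with a mean of 10 FPKM or more were named. The 5 genes most and least like SIGLEC8 and the genes of the cluster were named as well. IGLON5, SIGLEC29P and SIGLEC17P were named because they were among the called genes of the cluster.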

Additional observations from a re-analysis of the deposited data

Results flagged for a closer look

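The difference of SIGLEC8 from HMC-1.2 was not the same in the clones of HMC-1.3. It was 2.75 on the log2 scale in clone 1 and 1.72 in clone 2, and the difference between these, tested as clone 1 against clone 2, was 1.03 ± 0.03 (SE, n = 3 libraries each, edgeR adjusted p = 4.33e-13), with all 3 clone 1 libraries above all 3 of clone 2. Over 16 alternatives this value lay between 0.99 and 1.08.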

How the results depend on the processing

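Of 864 values of single genes under alternative settings, 846 kept their side of the call, 12 lost the call, 6 gained it and no called value turned its direction. SIGLEC12 against HMC-1.2 moved most, to -4.78 in clone 1, -5.02 in clone 2 and -4.80 for HMC-1.1 in limma with a pseudocount of 1 FPKM. The changed calls were in SIGLEC12, SIGLEC15, SIGLEC17P and SIGLEC14. SIGLEC8 stayed called higher than HMC-1.2 in all 16 alternatives of each comparison, at log2 values of 2.72 to 2.89 (clone 1), 1.67 to 1.81 (clone 2) and 2.81 to 2.98 (HMC-1.1). SIGLEC14 lay at the fold threshold between HMC-1.1 and HMC-1.2. It was called, at 0.60, 0.60 and 0.61 on the log2 scale, without TMM factors and in limma with a pseudocount of 1 or 0.1 FPKM, which gave 2 members called in place of 1, as did leaving out HMC-1.1 replicate 2 (0.59) or HMC-1.2 replicate 2 (0.60). With each library left out in turn, 1 to 2 members were called there. With no fold threshold, 3 members passed in clone 1 against HMC-1.2, 4 in clone 2 against HMC-1.2, 5 between HMC-1.1 and HMC-1.2, 4 between the clones, 3 in clone 1 against HMC-1.1 and 4 in clone 2 against HMC-1.1. The shares of all tested genes that pass without the fold threshold were not counted. These numbers therefore have no background to be read against. In place of the sum of SIGLEC5 and SIGLEC14, SIGLEC14 by itself gave 0.72 in clone 1 against HMC-1.2, which was called, and SIGLEC5 by itself gave 0.27 in clone 2 against HMC-1.2, which was not. The 6 comparisons are taken in the order clone 1, clone 2 and HMC-1.1 each against HMC-1.2, clone 1 against clone 2, and clone 1 and clone 2 each against HMC-1.1. Over all genes they gave 3193, 2629, 2803, 2013, 161 and 1306 calls. A test against 1.5-fold gave 1931, 1612, 1617, 837, 9 and 553, limma with a pseudocount of 1 FPKM gave 1902, 1453, 1514, 969, 61 and 566, and DESeq2 gave 106 between clone 1 and HMC-1.1. There, the share of calls that were higher was 66.5%, 77% with this limma fit and 33.3% in the test against 1.5-fold.

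The replicate numbers were not used to pair the libraries in the main fit. Of 18 same-numbered pairs none had a correlation of deviations above 0.1. The values lay between -0.043 and 0.096, beside means of -0.022 to -0.002 for pairs with different numbers. Of the 12 libraries, 6 were nearest to their own number, so that a weak pairing remains possible. A replicate block left the members called at 2, 2, 1, 1, 0 and 1 in this order and the SIGLEC8 difference at 2.75 in clone 1. Counts of 0 to 6 per library limit statements on CD22, SIGLEC1, SIGLEC7, SIGLEC9 and SIGLEC10, and 3 wells per subline limit every p-value to the spread between wells. The alternatives for SIGLEC12, SIGLEC15, SIGLEC17P and TYROBP, and those with no fold threshold outside clone 1 against HMC-1.2, were chosen after seeing the data.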
